A study of Mus musculus with 4 samples.

Results

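Genes for homeobox, forkhead, SOX, T-box and GATA transcription factors were examined in chromatin accessibility maps of mouse subcutaneous white fat. They were picked by symbol from the deposited gene table, as Hox, Irx, Pitx, Meis, Pbx, Pknox, Lhx, Meox, Prrx, Tbx, Fox, Sox or Gata genes or genes of the sine oculis type (Six5 and its relatives), and they made up 49 of its 11993 genes. The 49 genes were linked to 74 of the 12477 merged open regions of the series. They comprised 1 HOX gene, 9 genes of the TALE homeobox class (Meis, Pbx, Pknox and Irx), 7 other homeobox genes, 3 T-box, 18 forkhead, 8 SOX and 3 GATA genes. The libraries were made by ATAC-seq, an assay whose transposase inserts sequencing adapters where DNA is accessible, from nuclei of frozen fat that had been ground to powder. There were 2 libraries from male mice (Male 1 and Male 2) and 2 from female mice (Female 1 and Female 2), all of WT genotype and without a stated treatment, and the comparison named by the design is that of the sexes. Neither age nor strain is given in the sources used here. Nothing in the labels says that the libraries of a sex represent different animals, so p-values measure only the spread between these libraries, which may be technical.

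Homeobox, forkhead, SOX, T-box and GATA proteins bind DNA through their namesake domains and are known for assigning cells to a position and a lineage in the embryo. Many stay in use in adult tissues. In fat, HOX genes and their TALE partners are known to keep a depot's positional identity, FOXO proteins carry the insulin signal to the genome, and GATA2 and GATA3 hold preadipocytes back from maturing into fat cells. HOX, SOX and T-box genes are also textbook targets of Polycomb repression, which keeps them closed in tissues that do not use them.

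Promoter sequence was at hand for 32 of the 49 genes in RefSeq windows that run from upstream of the gene start to just past it (build GRCm38.p6). Of 41 such windows, 10, each of a different gene, overlapped an open region. The 6 windows printed here let a reader compare promoters with called peaks in different libraries. Each is written 5′ to 3′ on the strand of its gene, with the bases inside a merged open region in capitals. Irx2 (chr13:72628570-72628869, plus strand) and Meis1 (chr11:19018920-19019219, minus strand) had a peak in both female libraries and in neither male library. Gata2 (chr6:88198414-88198713, plus strand) had a peak in Female 1 alone, Foxo1 (chr3:52268087-52268386, plus strand) in Female 2 alone and Meox2 (chr12:37108290-37108589, plus strand) in Male 2 alone. The region at the start of Foxo3 (chr10:42276646-42276945, minus strand) had a peak in 3 libraries, all but Male 2. A library without a called peak was not thereby closed. Foxo1 stood at 1.18 times the library median in Female 1, without a peak, and at 0.95 times in Female 2.
Irx2: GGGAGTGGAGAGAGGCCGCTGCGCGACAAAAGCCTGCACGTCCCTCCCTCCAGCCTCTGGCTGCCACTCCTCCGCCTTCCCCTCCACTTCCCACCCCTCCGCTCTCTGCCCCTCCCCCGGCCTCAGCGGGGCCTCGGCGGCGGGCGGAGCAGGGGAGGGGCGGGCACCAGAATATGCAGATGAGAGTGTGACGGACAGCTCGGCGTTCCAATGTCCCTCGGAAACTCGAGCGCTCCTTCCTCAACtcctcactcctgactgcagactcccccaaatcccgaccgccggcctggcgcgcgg
Meis1: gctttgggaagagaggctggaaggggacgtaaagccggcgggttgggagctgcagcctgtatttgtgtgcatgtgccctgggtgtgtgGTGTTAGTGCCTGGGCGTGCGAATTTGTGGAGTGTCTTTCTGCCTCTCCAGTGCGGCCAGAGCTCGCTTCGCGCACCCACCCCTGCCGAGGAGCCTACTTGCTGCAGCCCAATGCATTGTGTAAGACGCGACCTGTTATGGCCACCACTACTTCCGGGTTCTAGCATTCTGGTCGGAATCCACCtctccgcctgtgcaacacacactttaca
Gata2: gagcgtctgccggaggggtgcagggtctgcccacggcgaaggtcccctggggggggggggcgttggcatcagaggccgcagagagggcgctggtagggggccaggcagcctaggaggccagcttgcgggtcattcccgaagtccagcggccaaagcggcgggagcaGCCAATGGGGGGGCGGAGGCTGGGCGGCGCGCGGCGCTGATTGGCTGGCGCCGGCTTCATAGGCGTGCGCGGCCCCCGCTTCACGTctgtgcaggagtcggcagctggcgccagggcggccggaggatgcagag
Foxo1: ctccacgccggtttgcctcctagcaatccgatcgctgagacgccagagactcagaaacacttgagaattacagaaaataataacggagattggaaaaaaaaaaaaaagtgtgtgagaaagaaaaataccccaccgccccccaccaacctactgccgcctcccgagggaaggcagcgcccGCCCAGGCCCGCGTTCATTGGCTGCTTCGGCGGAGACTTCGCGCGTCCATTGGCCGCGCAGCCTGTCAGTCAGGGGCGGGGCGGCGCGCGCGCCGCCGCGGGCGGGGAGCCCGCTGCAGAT
Foxo3: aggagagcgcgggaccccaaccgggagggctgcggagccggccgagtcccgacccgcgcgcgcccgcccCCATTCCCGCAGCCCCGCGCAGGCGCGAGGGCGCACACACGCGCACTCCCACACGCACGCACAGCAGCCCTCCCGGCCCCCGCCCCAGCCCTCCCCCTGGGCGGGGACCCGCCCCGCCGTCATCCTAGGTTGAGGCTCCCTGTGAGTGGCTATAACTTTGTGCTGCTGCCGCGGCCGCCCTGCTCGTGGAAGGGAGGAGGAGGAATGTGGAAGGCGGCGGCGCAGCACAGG
Meox2: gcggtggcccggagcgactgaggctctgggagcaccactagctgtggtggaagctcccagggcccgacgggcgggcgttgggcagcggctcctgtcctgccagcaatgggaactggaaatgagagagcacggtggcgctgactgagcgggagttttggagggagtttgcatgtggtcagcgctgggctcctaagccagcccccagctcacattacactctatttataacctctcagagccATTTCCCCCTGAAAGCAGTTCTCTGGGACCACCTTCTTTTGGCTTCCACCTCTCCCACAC
The Irx2 region covered 245 bases of its window and the Foxo3 region 231, while those of Gata2 and Meox2 covered 86 and 60. The 10 open windows were rich in G and C, with a median of 69.7% and 30 CpG sites. The 31 windows of these genes outside open regions had 60.3% and 11 CpG sites, all 7762 open promoters 63% and 24, and all 32851 promoters 52.7% and 7. GGGCGG, the GC box read by SP and KLF factors, was found on either strand in 8 of the 10 open windows (80.0%), against 73.1% of all open promoters and 35.7% of all promoters. CCAAT was found in 5 of them (50%, Foxk2, Foxo1, Gata2, Irx2 and Meis1), against 42.9% of all open promoters and 37.4% of all promoters. Of the core words of the families themselves, TGACAG, of MEIS and PKNOX proteins, was in 2 windows (20%, Foxj3 and Foxo1), against 16.5% of open promoters and 19.2% of all. The HOX word TAATTA was in none of the 10, against 1.57% of all open promoters, and the word of PBX with HOX, TGATTNAT, in none, against 0.786%. The forkhead word TGTTTAC was in none, against 2.15%, the SOX word AACAAT in none, against 4.43%, the T-box word GGTGTGA in none, against 2.77%, and the word of the factors like Gata2, AGATAA, in none, against 4.3%. CCGGAAGT (ETS) was in the Meis1 window, against 10.7% of all open promoters, and TATAAA in that of Meox2, against 4.82%. CACGTG was in none of the windows, against 10.9% of all open promoters. All words were searched on both strands of the whole window, so a match may lie outside the open bases. The GGGCGG and TATAAA of Meox2 and the TGACAG of Foxj3 do so. A match is a run of letters, not a measured binding site.

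Genes of these families were less often linked to an open region than coding genes at large. RefSeq lists 158 coding genes whose symbols match the choice, and 49 of them (31%) were in the table, against 10662 of all 21900 coding genes (48.7%). The share ranged widely between families. TALE genes stood highest with 9 of 15 (60.0%), followed by 3 of 6 GATA genes (50%), 8 of 19 SOX genes (42.1%), 18 of 44 forkhead genes (40.9%), 7 of 22 other homeobox genes (31.8%) and 3 of 13 T-box genes (23.1%). Of the 39 HOX genes 1 was linked (2.56%). These shares are descriptions of 1 set of regions, and no test was made of them. Genes with no linked region in the table included Tbx15 and Tbx18, T-box genes known from fat cell lineages, Foxc1, Sox9 and the endothelial Sox17, while their relatives Tbx3, Foxc2, Sox8 and Sox18 each had 1.

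**Figure D1:**
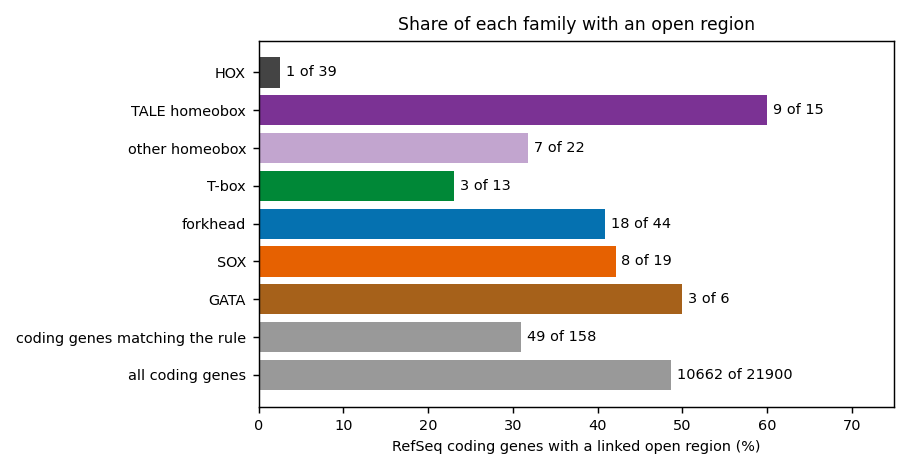
Bars give the share of RefSeq coding genes in each family that had a linked open region (%), with the counts beside them; the grey bars give all genes matching the choice and all coding genes. TALE genes reach 60.0% and HOX genes 2.56%, against 48.7% of all coding genes.

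The HOX clusters held almost no called region in any library. HoxA on chromosome 6, HoxB on chromosome 11 and HoxD on chromosome 2 held 0 merged regions between the starts and ends of their outermost genes, and HoxC on chromosome 15 held 1. Over the 0.492 Mb of the 4 clusters this came to 2.03 regions per Mb, against 4.64 regions per Mb over the 2690.9 Mb between the first and last coding genes of all chromosomes. At that density the clusters hold few regions in either case, and the difference was not tested. The HoxC region (chr15:102999305-102999426, mm10) lay 8826 bp downstream of the start of Hoxc8, a HOX gene known for trunk identity, and was linked to no other gene. It had a peak in both female libraries and in neither male library. The Hoxc8 height was 12 and 7.34 in the males, against 23 and 22.2 in the females. Both male values lay below both female values, but relative to the library median they were 0.5 and 0.5 in the males and 0.61 and 0.73 in the females, so that it was a low region in all 4 libraries.

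The linked regions lay farther from gene starts than those of other genes. The nearest peak was within 1 kb of the start for 24 of the 49 genes (49%), against 69.7% of all genes. It lay farther upstream for 12 (24.5%, against 11%), inside the gene beyond 1 kb for 7 (14.3%, against 8.66%) and downstream beyond 1 kb for 6 (12.2%, against 10.7%). TALE genes (6 of 9) and forkhead genes (11 of 18) had most of the peaks at starts, while 2 of 7 other homeobox genes and 2 of 8 SOX genes had one. The most distant regions lay inside or just past long genes: the centres of the 2 Foxp1 regions were 485250 and 259737 bp from its start, that of the Meis2 region 204050 bp, and those of the 2 Sox5 regions 152605 and 134476 bp. The regions had a median length of 187 bp (84 to 804 bp), against 195 bp for all merged regions. Of the 49 genes, 32 had a single region (65.3%, against 65.5% of all genes), and Foxn3 and Foxp4 had the most with 4 each. Foxk1, Foxo3, Pbx2 and Pknox1 had 3 each.

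**Figure D2:**
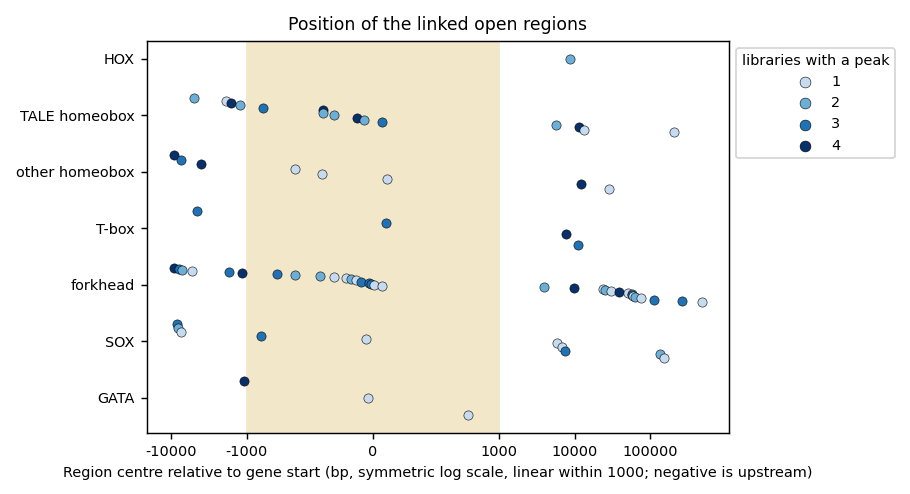
Each point is 1 of the 74 regions, placed by the distance of its centre from the start of the linked gene (bp, symmetric log scale, negative upstream) and shaded by the number of libraries with a peak in it; the band marks 1 kb to either side of the start. Few SOX and other homeobox regions lie in the band, while many TALE and forkhead regions do.

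Many regions were shared with a neighbouring gene. Of the 74 regions, 36 were linked to another gene as well, and 26 of those had their centre nearer the start of that other gene. For 18 of the 49 genes this held for every region. For 11 genes, namely Foxc2, Foxh1, Foxp3, Irx5, Lhx1, Lhx9, Pitx3, Sox15, Sox8, Tbx10 and Tbx6, every region lay within 1 kb of another gene's start and beyond 1 kb of their own. The Lhx1 region, for example, was 12006 bp from the start of Lhx1 and 27 bp from that of Aatf, and the Foxc2 region was centred at -7824 bp, that is upstream, from the start of Foxc2 and 32 bp from the start of Mthfsd. Heights of these genes cannot be assigned to the factor gene alone. Every region was shared for 26 of the 49 genes (53.1%), against 59.2% of all genes.

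Peaks were called less often in the male libraries than in the female ones, for these genes as for all. Male 1 had 5484 peak intervals and Male 2 had 4049, against 10238 in Female 1 and 8022 in Female 2. Male 2 stood apart by a median interval of 284 bp, against 160 to 171 bp in the other libraries. No read total is given in the sources used here, so the depth behind a height is unknown. Of the fat cell markers Plin4, Cidec, Retn, Cfd, Lipe, Pparg and Cebpa had a linked region and Adipoq, Plin1, Lep and Fabp4 had none. A peak was linked to 2 and 0 of these 7 in the males, against 6 and 5 in the females. Of all genes, 61.2% and 49.1% had one in the males, against 89.7% and 76.7% in the females. Of 4 endothelial markers 0 and 1 had a peak in the males, against 3 and 2 in the females. Of 4 stromal progenitor markers it was 0 and 1, against 3 and 1. Of 4 mammary epithelium markers it was 2 and 2, against 3 and 3, and of 4 Schwann cell markers 0 and 0, against 4 and 1. The 2 macrophage markers had a peak in every library, but a region linked to Cd68, 1 of them, lay 52 bp from the start of Mpdu1. Marker peaks can thus belong to a neighbouring gene. In bulk tissue, fewer cells of a type and less open chromatin per cell cannot be told apart.

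A peak was linked to 27 and 18 of the 49 genes in Male 1 and Male 2, against 46 and 36 in Female 1 and Female 2. As shares these were 55.1% and 36.7% in the males, against 93.9% and 73.5% in the females, where all genes had 61.2% and 49.1% in the males, against 89.7% and 76.7% in the females. The lower counts in males had an exact two-sided permutation p of 0.3333, the smallest that 2 libraries against 2 allow. A peak in all 4 libraries was found for 14 genes (28.6%, against 35.9% of all genes). Among them were Pbx2, Pknox1, Irx5, Lhx1, Lhx9, Pitx3, Tbx6, Tbx10, Foxo3, Foxh1, Foxj2, Foxk1 and Gata3. For Tbx6 the peaks of the 2 males lay in different regions, and neither region had a peak in all 4 libraries. No SOX gene belonged to the 14. Irx2, Irx3, Meis1, Hoxc8, Six5, Foxp4 and Sox5 had a peak in both females and in neither male (14.3%, against 11.7% of all genes), though for Six5 and Foxp4 the peaks of the 2 females lay in different regions, and 0 genes showed the converse (0.475% of all genes). This pattern moved with the number of intervals called: when the 4049 highest intervals of each library were compared, 23 and 18 genes had a peak in the males, against 25 and 17 in the females, and 0 genes had one in both females and neither male. Without Male 1, 18 genes had a peak in both females and not in the remaining male, and without Female 2, 16 genes had one in the remaining female and neither male.

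The main measure was the peak height, a deposited signal in a unit that differs by library, averaged over the regions of a gene. It is given for a gene in every library, also where no peak was called there. A region entered the series through a called peak. For 18 of the 49 genes (36.7%, against 27.9% of all genes) peaks were called in females alone. For 1 gene (2.04%, against 4.05%) they were called in males alone. Such genes were measured where the calling sex was high, so their sex differences are no independent evidence of a difference. Heights of a sex are listed with library 1 before library 2. Heights of the 49 genes averaged 24.6 and 16.5 in the males, against 42.8 and 32.8 in the females, close to the averages of all genes (25.3 and 16.8 in the males, against 40.9 and 32.5 in the females). The 49 genes took 0.396% and 0.401% of the summed height of all genes in the males, against 0.427% and 0.412% in the females.

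No gene of these families was called as differing between the sexes. In limma fitted over all 11993 genes on log2(height + 9), with Benjamini-Hochberg adjusted p under 0.05 as the threshold, 0 of the 49 genes were lower and 0 higher in males, where 71 genes in all were lower (0.592%) and 0 higher (0%). At an unadjusted p under 0.05, 21 of the 49 were lower in males, where 31.4% of all genes were, and 0 were higher, where 0.00834% of all genes were. Their adjusted p ran from 0.0971 to 0.889. Both males lay below both females for 40 of the 49 genes, where 76.4% of all genes did, and both males above both females for 0, where 0.35% did. The count of calls rested on both males: without Male 1, 30 of the 49 and 53.3% of all genes were called lower in males (0 of the 49 and 0.233% of all genes higher), and without Male 2, 0 of the 49 and 0% of all genes. Without Female 1, 0 of the 49 and 0.158% of all genes were called lower, and without Female 2, 0 of the 49 and 0.534%. With limma's variance trend left out, 1 of the 49 genes was called lower, where 3.47% of all genes were.

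The median difference was -0.71 (male minus female, log2 scale; -1.16 to 0.07) for the 49 genes and -0.63 for all genes. This shift of all genes runs through every comparison of the sexes, so differences are also given relative to it. On that relative scale the 49 genes had a median of -0.08 (-0.53 to 0.69), with 30 below and 19 above the median of all genes. By family, TALE genes had a relative median of -0.34 with 8 of 9 below, SOX genes -0.18 with 6 of 8 below and GATA genes -0.15 with 2 of 3 below, while forkhead genes had 0.00 (9 of 18 below), T-box genes 0.11 and other homeobox genes 0.12. The median of the 49 genes ran from -0.12 to -0.02 when 1 library was left out, and the TALE median from -0.32 to -0.21. The SOX median ran from -0.26 to -0.05 (without Male 2, with 4 of 8 genes below), and the GATA median from -0.28 without Male 1 to -0.08 without Male 2. The T-box median was 0.30 without Male 1 and negative without any of the other libraries (-0.06 to -0.02), while the forkhead median ran from -0.01 to 0.09 and that of the other homeobox genes from 0.11 to 0.14. The difference between families was not tested. With libraries centred on their medians, both males lay below both females for 13 of the 49 genes, where 21.7% of all genes did, and above them for 8, where 18% did. Among TALE genes it was 5 of 9 below and 1 above. The 8 genes above were Foxj3, Foxk1, Foxm1, Lhx9, Meox2, Pbx3, Six5 and Sox7. In the centred fit 0 of the 49 genes were called, where 0% of all genes were. The smallest adjusted p (limma) was 0.609 for the 49 genes and for all genes alike. At an unadjusted p under 0.05, 2 of the 49, among them Foxa3, were lower in males and 0 higher. Of all genes 3.64% were lower and 4.39% higher. In centred libraries without Male 1, 4 of the 49 genes were called lower (6.7% of all genes) and 4 higher (8.89% of all genes), the higher ones being Lhx1, Foxn2, Gata2 and Foxm1. In centred libraries without Male 2, 1 of the 49 was called lower (0.108% of all genes) and 0 higher (0.075%).

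**Figure D3:**
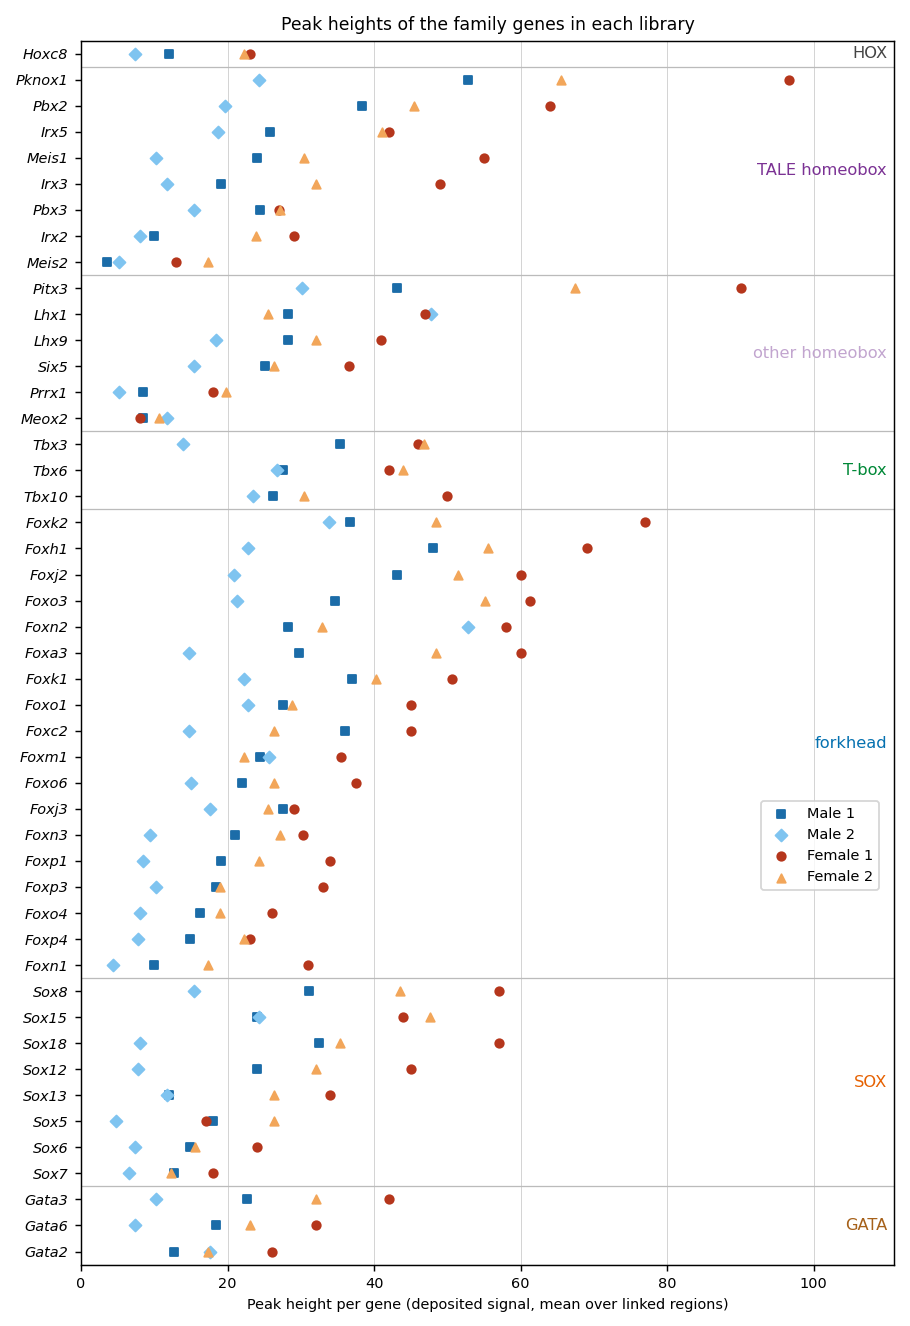
Peak height of 47 of the 49 genes in the 4 libraries (deposited signal, mean over linked regions), grouped by family and ordered by mean height. The blue male points lie left of the red and orange female points for 38 genes, and overlap with them for 9, among them Lhx1, Meox2, Foxn2 and Gata2.

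TALE proteins pair with HOX proteins on DNA. Pknox1, whose product binds PBX proteins and keeps them in the nucleus, had the highest mean height of the set, with 52.8 and 24.2 in the males, against 96.7 and 65.5 in the females. In Female 1 this was 2.54 times the library median, at the 99.2nd percentile of all genes.

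Meis1 is a HOX and PBX partner whose promoter region had no called peak in either male. Meis1 had heights of 24 and 10.3 in the males, against 55 and 30.4 in the females. It passed no threshold, with a difference of -0.99 ± 0.39 and an adjusted p of 0.113 (limma). Its relative Meis2, with a single unshared region far downstream of its start, was among the lowest genes of the set, at 3.53 and 5.14 in the males, against 13 and 17.3 in the females. Pbx2 had 38.4 and 19.6 in the males, against 64 and 45.5 in the females, from 3 shared regions that all lie nearer the start of another gene. Pbx3 was the TALE gene that went against the others on the relative scale: it had 24.4 and 15.4 in the males, against 27 and 27.1 in the females, a difference of -0.34 ± 0.38, which is 0.29 above the median of all genes.

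The Iroquois genes Irx2, Irx3 and Irx5 pattern the embryo, and Irx3 is also known as a regulator of thermogenic genes in fat cells. Irx3 had 19.1 and 11.7 in the males, against 49 and 32.1 in the females. The difference was -1.02 ± 0.38, with an adjusted p of 0.110 (limma). Its neighbour Irx5 had 25.8 and 18.7 in the males, against 42 and 41.1 in the females. Irx2, on another chromosome, had 9.9 and 8.08 in the males, against 29 and 23.8 in the females, a difference of -0.98 ± 0.36 with an adjusted p of 0.106 (limma). For all 3 genes both males lay below both females, and for Irx2 and Irx3 this also held in centred libraries. The regions of Irx2 and Irx3 are each shared with a transcript whose start is nearer to them.

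The 2 highest relative differences of the set were those of Lhx1 and Meox2, and both moved with Male 2. Lhx1, a LIM factor known from head and kidney formation, had 28.3 and 47.7 in the males, against 47 and 25.5 in the females. Male 2 and Female 1 were higher as deposited, so that the sexes overlapped. Over the library median Lhx1 stood out in Male 2 at 3.25 times, against 1.18 in Male 1, 1.24 in Female 1 and 0.84 in Female 2. The difference was 0.07 ± 0.41 (0.69 relative to all genes, adjusted p 0.889, limma). The relative value was 1.23 without Male 1 and 0.16 without Male 2. This height was read at the start of Aatf. Meox2, a mesoderm and vascular factor, had 8.48 and 11.7 in the males, against 8 and 10.7 in the females. It was the lowest gene of the set in Female 1 and the only one with a peak in Male 2 alone; its difference was 0.06 ± 0.34 (0.69 relative, adjusted p 0.883, limma). The relative value was 1.05 without Male 1 and 0.33 without Male 2, where Foxj3 at 0.41 lay above both genes.

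Pitx3, known from lens and dopamine neurons, was the highest of the class with 43.1 and 30.1 in the males, against 90.0 and 67.4 in the females, in a region 164 bp from the start of Gbf1. Lhx9, known from the gonad, had 28.3 and 18.4 in the males, against 41 and 32.1 in the females, at the start of a neighbour as well. The sexes were apart for both of these genes as deposited, and neither was called. In centred libraries the males stayed below the females for Pitx3 but lay above them for Lhx9. Six5 had 25.1 and 15.4 in the males, against 36.5 and 26.3 in the females, and its males too lay above its females in centred libraries. Prrx1, a marker of limb and fat mesenchyme, had 8.48 and 5.14 in the males, against 18 and 19.7 in the females, from 1 short region of 84 bp inside the gene.

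Among T-box genes, Tbx3, known from limb and mammary development, had an unshared region across its start. Its height was 35.3 and 14 in the males, against 46 and 46.9 in the females, and Male 2 lay lowest. Tbx6, a mesoderm factor, had 27.6 and 26.8 in the males, against 42 and 44 in the females. Tbx10 had 26.2 and 23.5 in the males, against 50 and 30.4 in the females. The males lay below the females for all 3 genes, and in centred libraries the sexes overlapped for all 3.

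The FOXO genes encode forkhead factors, and insulin signalling excludes the products of Foxo1 and Foxo3 from the nucleus. Foxo3 had 34.6 and 21.3 in the males, against 61.3 and 55.1 in the females, and its regions at the start and just upstream had a peak in 3 and 4 libraries. Foxo1, the main FOXO of fat and liver, had 27.6 and 22.8 in the males, against 45 and 28.8 in the females. The Foxo1 males lay just under Female 2, and the difference was -0.41 ± 0.40, which is 0.22 above the median of all genes (adjusted p 0.384, limma). Foxo4 had 16.3 and 8.08 in the males, against 26 and 18.9 in the females. Foxo6 had 21.9 and 15.1 in the males, against 37.5 and 26.3 in the females. In none of the 4 genes did the sexes overlap, and of the 4 Foxo3 alone stayed apart in centred libraries.

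Among the partners of these factors 0 genes were called. Of 20 listed FOXO upstream genes (insulin receptor, its substrates, PI3 kinase, AKT and SGK kinases and 14-3-3 proteins), 19 were measured, with 0 lower and 0 higher and a relative median of -0.07. Insr, the insulin receptor, had a difference of -0.01, and Irs1, its substrate, one of -1.15 with an adjusted p of 0.0941 (limma). Of 15 listed FOXO target genes 13 were measured, with 0 lower and 0 higher and a relative median of 0.04. Catalase (Cat) had a difference of -1.13 and Sesn1 one of -0.25. These compare with the 0.592% of all genes called lower, so that a count of 0 is near what all genes give for lists of this size.

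Foxn1, the factor of thymic epithelium and hair, had the smallest p of the 49 genes, but with low heights of 9.9 and 4.41 in the males, against 31 and 17.3 in the females. The difference was -1.03 ± 0.35 with an adjusted p of 0.0971 (limma). Its region lies 30492 bp from the start and is nearer to that of Unc119. A peak was called there in Female 1 alone, so the region was in the series only through a female library. Foxa3, known from liver and fat cells, had 29.7 and 14.7 in the males, against 60.0 and 48.5 in the females. Its difference was -1.06 ± 0.40 with an adjusted p of 0.110 (limma), and the males stayed below the females in centred libraries. That region is 77 bp from the start of Sympk.

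Foxn2, Foxm1 and Foxj3 had the smallest differences among forkhead genes. Foxn2 had 28.3 and 52.9 in the males, against 58 and 32.9 in the females. Over the library median Foxn2 stood out in Male 2, as Lhx1 did, at 3.6 times, against 1.18 in Male 1, 1.53 in Female 1 and 1.09 in Female 2. Its difference was -0.14 ± 0.41, which is 0.49 above the median of all genes, but the relative value was -0.11 without Male 2. Foxm1, a driver of cell division, had 24.4 and 25.7 in the males, against 35.5 and 22.2 in the females, with a difference of -0.13 ± 0.39. The Foxm1 regions lay 51 bp from the start of Tulp3 and 112 bp from that of Rhno1, each nearer than the start of Foxm1. Foxj3 had 27.6 and 17.6 in the males, against 29 and 25.5 in the females, with a difference of -0.21 ± 0.38. The sexes overlapped for all 3, and in centred libraries both males lay above both females for Foxm1 and Foxj3.

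The FOXK genes, which act on starvation and glycolysis genes, were among the more open forkhead genes. Foxk2 had 36.8 and 33.8 in the males, against 77 and 48.5 in the females. Foxk1 had 37 and 22.3 in the males, against 50.7 and 40.3 in the females. Neither pair overlapped. Foxj2 had 43.1 and 20.9 in the males, against 60.0 and 51.4 in the females, and Foxh1, a partner of SMAD proteins, 48.1 and 22.8 in the males, against 69 and 55.5 in the females. Foxc2, known from lymphatic vessels and fat, had 36.1 and 14.7 in the males, against 45 and 26.3 in the females, so that Male 1 lay between the females. The FOXP genes and Foxn3 were low. Foxp1 had 19.1 and 8.44 in the males, against 34 and 24.3 in the females. Foxp4 had 14.8 and 7.71 in the males, against 23 and 22.2 in the females. Foxp3, the factor of regulatory T cells, had 18.4 and 10.3 in the males, against 33 and 18.9 in the females, read 284 bp from the start of Ppp1r3f. Foxn3 had 21 and 9.36 in the males, against 30.3 and 27.1 in the females. Males lay below females for these 4 genes. Foxp3 and Foxo4, the 2 genes of the set on the X chromosome, had differences 0.05 and 0.04 above the median of all genes.

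Among SOX genes, the endothelial factor Sox18 had the widest gap between the males. It had 32.5 and 8.08 in the males, against 57 and 35.3 in the females, and a peak was called in Female 1 alone. Its difference was -1.02 ± 0.39 with an adjusted p of 0.111 (limma). Relative to all genes it was -0.39, and without Male 2 it was 0.02. The Sox18 region was centred at -7364 bp from the start of Sox18 and 1306 bp from that of Tcea2. Sox12 had 24 and 7.71 in the males, against 45 and 32.1 in the females, a difference of -1.003 ± 0.381 with an adjusted p of 0.110 (limma). Male 2 was the low library for both genes.

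Sox7, the other endothelial gene, was low throughout with 12.7 and 6.61 in the males, against 18 and 12.3 in the females, and the sexes overlapped. Sox8, known from testis and neural crest, had 31.1 and 15.4 in the males, against 57 and 43.6 in the females. Sox13 had 12 and 11.7 in the males, against 34 and 26.3 in the females. For these last 2 genes the males stayed below the females also in centred libraries. Sox15 had 24 and 24.2 in the males, against 44 and 47.7 in the females, at the start of Mpdu1. The cartilage factors Sox5 and Sox6 were low: Sox5 had 18 and 4.77 in the males, against 17 and 26.3 in the females. Sox6 had 14.8 and 7.34 in the males, against 24 and 15.6 in the females. Sox5 overlapped between the sexes and Sox6 did not.

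The 3 GATA genes had low to middling heights. Gata2, which restrains fat cell maturation, had 12.7 and 17.6 in the males, against 26 and 17.3 in the females, in an unshared region across its start. Male 2 and Female 2 were alike as deposited, but stood at 1.2 and 0.57 times their library medians. The sexes overlapped as deposited. The difference was -0.33 ± 0.36, which is 0.29 above the median of all genes, while the relative value was -0.08 without Male 2. Gata3, its partner in that role, had 22.6 and 10.3 in the males, against 42 and 32.1 in the females, with a peak in all 4 libraries. The Gata3 males lay below the females as deposited and in centred libraries. Gata6, known from heart and gut, had 18.4 and 7.34 in the males, against 32 and 23 in the females.

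**Figure D4:**
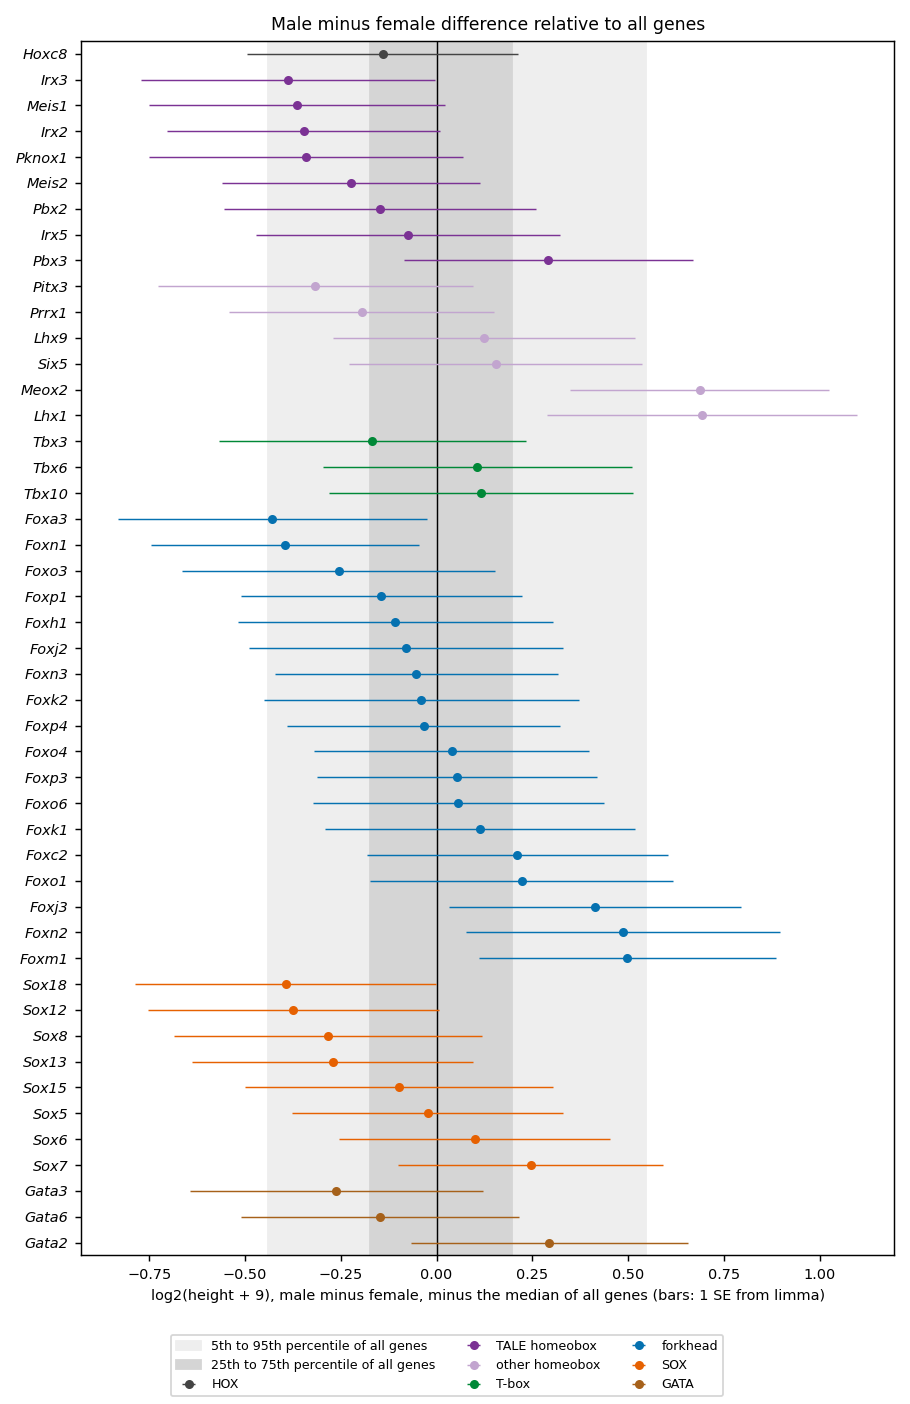
Male minus female difference of 47 of the 49 genes on the log2(height + 9) scale, relative to the median of all genes, with bars of 1 SE from limma; the bands span the 5th to 95th and 25th to 75th percentiles of all 11993 genes. Of the 8 TALE genes shown 7 lie below 0, and Lhx1 and Meox2 lie above the outer band, which ends at 0.55.

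Libraries of 1 sex differed among themselves for these genes as for all genes. Male 2 was below Male 1 at a median ratio of 0.611 for the 49 genes and 0.613 for all genes, and Female 2 below Female 1 at 0.749 and 0.787. Male 2 exceeded Male 1 for 8 genes (16.3%, against 14.3% of all genes), and Female 2 exceeded Female 1 for 9 (18.4%, against 16.4%). The largest departures in the males were Foxn2, with 1.18 times the library median in Male 1 and 3.6 times in Male 2, and Lhx1, with 1.18 and 3.25 times. Sox18 departed the other way, with 1.35 and 0.55 times. In the females the largest departures by difference were those of Meis1, with 1.45 times the library median in Female 1 and 1.01 times in Female 2, and Foxn2, with 1.53 and 1.09 times. By ratio the largest was that of Sox5, with 0.45 and 0.87 times.

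**Figure D5:**
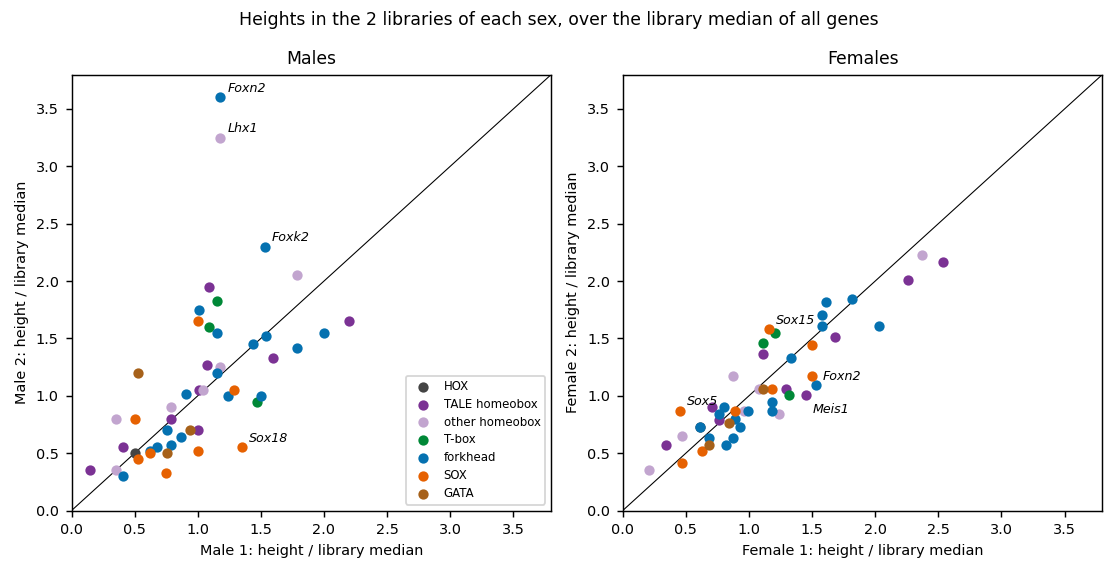
Each point is 1 of the 49 genes, with its height over the library median of all genes in library 1 (x axis) and library 2 (y axis), males in the left panel and females in the right; the line marks equal values. Foxn2 and Lhx1 stand above the line in the males at 3.6 and 3.25 in Male 2, and the female points lie nearer the line, as Meis1 at 1.45 and 1.01 and Foxn2 at 1.53 and 1.09.

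The lists of other partners also gave 0 calls in either direction. Measured were 5 of 10 GATA and LIM cofactors (relative median -0.10), 6 of 7 groucho corepressors (-0.15), 22 of 26 Polycomb and Trithorax genes that set HOX gene state (-0.01) and 14 of 30 further homeobox genes outside the choice (0.05). Zfpm1, the GATA partner FOG1, had 61.5 and 38.9 in the males, against 98 and 78.1 in the females, a height above that of any GATA gene. The corepressor Tle6 had the lowest difference of its list at -1.10, with an adjusted p of 0.106 (limma). Mll1 and Kdm6a, activators in the Trithorax group, had differences of -1.19 and -1.15, with adjusted p of 0.0945 and 0.0992 (limma). Phc3 of the Polycomb group had one of 0.03.

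Markers of the cell types of fat are given beside these values. Of the 28 measured, 2 were called lower in males, where 0.592% of all genes were, and neither was called in centred libraries. Both males lay below both females for 25 of them, where 76.4% of all genes did. Summed heights of the 7 fat cell markers were 141.7 and 90.7 in the males, against 280.5 and 231 in the females (relative median -0.20). The 4 measured of 7 endothelial markers summed to 44.5 and 37.1 in the males, against 92 and 69.5 in the females (0.11). The 4 measured of 9 stromal progenitor markers summed to 41 and 43.3 in the males, against 101 and 80.6 in the females (-0.33). The 4 measured of 10 mammary epithelium markers summed to 77.4 and 36 in the males, against 144 and 117.6 in the females (-0.34), and 1 of them, St14, was called lower in males. The 4 measured of 5 Schwann cell markers summed to 43.8 and 23.5 in the males, against 83 and 71.5 in the females (-0.02), and Erbb3 was called lower in males. Macrophage (2 of 6 measured), lymphocyte (2 of 7) and skeletal muscle (1 of 5) markers were too few to describe as groups, with 0 called. None of these measured markers was at 0 in any library. The part of these cell types in the values of the 49 genes was not tested.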

How the data were processed

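Per the submitters' processing notes, BWA, MACS2 2.1.0 and build mm10 were used; no further setting is given in the sources used here. The deposited signal is a peak height per gene and library. In genes with a single region the deposited values fell, to within 2%, on whole-number multiples of a unit that differed by library, 0.707 and 0.734 in the males, against 1.0 and 0.822 in the females; the step that set this unit is unstated. No read totals were at hand, so no count test was used. Unused per-library columns numbered 0. Positions are mm10, counted from 1.

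Heights were compared as log2(height + 9), with a pseudocount just above the 5th percentile of nonzero heights, with limma 3.58.1 in R 4.3.3 (trend, no replicate block), male minus female, over all 11993 genes; each had a height above 0 in at least 2 libraries. This scale understates the change of low genes. The fit was run on simulated data with centred libraries and the same spread for every gene. That setting lacks the shift between libraries in the main comparison, so it does not vouch for the calls made there. Gene by gene, same-numbered libraries of the sexes did not deviate together (correlation 0.017 over genes). In level, library 2 lay below library 1 in both sexes, with median ratios of 0.613 in males and 0.787 in females. The labels do not say whether the numbers pair the libraries, and they were not taken to do so. The members and lists were chosen with earlier results of these data known. Genes named with values were a fixed set of known regulators, the 8 members with the smallest p, the 8 with the highest difference, the 5 highest, the 5 lowest, the 5 with the most regions and those with peaks in 1 sex alone; others were added so that nearly every member has its values, and 2 of the 49 genes are not reported by name here. Gene IDs of 49 members matched RefSeq. Promoter letters are RefSeq's (GRCm38.p6), put in capitals where a window overlaps a merged region. Python 3.11.15, pandas 2.3.3, numpy 2.4.6, scipy 1.17.1 and matplotlib 3.10.9 were used. Alternatives were the library scaling, pseudocount, filter, variance trend, shared region sets, a replicate block, peak overlap rules and each library left out.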

Additional observations from a re-analysis of the deposited data

How the results depend on the processing

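Calls depended on the scaling and on single libraries. The member median stayed negative, as was the median of all genes in the main comparison. Relative to all genes it was small, from -0.119 without Female 1 to -0.016 with a pseudocount of 36. The count of all genes lower in males (71) was 0 with libraries centred on their medians, 0 with quantile normalization, 0 of the genes with a mean height above the 25th percentile and 416 without the variance trend. With a replicate block it was 6918 (7 higher), and with the block and centred libraries 12 (74 higher). Since the numbers were not taken to pair the libraries, these are given for completeness. Leaving out 1 library gave 0 to 6391 lower and 0 to 1066 higher: as deposited, 6391 lower and 28 higher without Male 1, 0 lower without Male 2 and 19 lower without Female 1, and in centred libraries 803 lower and 1066 higher without Male 1, 13 lower and 9 higher without Male 2 and 0 lower without either female.

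Of the 49 genes, 0 were lower in the main comparison, 1 without the variance trend (limma adjusted p 0.044), 33 with the replicate block and 0 to 30 with 1 library left out; 0 were higher, and 0 to 4 with 1 library left out (Lhx1, Foxn2, Gata2 and Foxm1, in centred libraries without Male 1). Without Male 1, 30 were lower as deposited and 4 in centred libraries, and without Male 2, 0 and 1. The member median of -0.71 was -0.091 in centred libraries, -0.10 after quantile normalization, -0.36 with a pseudocount of 36, -0.091 with the block in centred libraries, -0.919 to -0.429 with 1 library left out as deposited, and -0.125 to -0.031 with 1 library left out and the others centred. Relative differences of single genes were followed only for members with the smallest p or the highest difference, which gave 283 results. Centring, the block, and leaving out the filter or the variance trend leave a relative value unchanged by construction. Each library left out was counted as deposited and centred, with the same relative value. The number of results that kept direction is therefore no measure of stability. The sign changed in 6 of the 283, all without Male 2. Over the libraries left out, Sox18 ran from -0.80 to 0.016, Foxn2 from -0.11 to 1.09 and Gata2 from -0.083 to 0.68. Another 25 passed the threshold under an alternative, and 252 kept direction and side.

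With the 4049 highest intervals of each library, members with a peak numbered 25 in Female 1 and 17 in Female 2, and 0 had one in both females and neither male, against 7 with all intervals and 9 to 18 with 1 library left out, 18 without Male 1 and 16 without Female 2. The cause of these changes was not tested. Where a library was left out, the lone library of its sex was assumed to vary like the other sex. Without a filter the genes were the same 11993. Depth per library is unknown, which limits what a low height can show.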
